A study of Drosophila melanogaster with 16 samples.

Results

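The Myc peaks described here were those called for Myc alone and away from start sites in larval wing discs of Drosophila melanogaster. Alone means that no Psi or RNA Pol peak was called there. Signal of Psi and RNA Pol under these peaks was not examined, so absence of their binding was not measured. They were chosen from the deposited peak lists as the Myc peaks that overlapped no Psi peak and no RNA Pol peak by 1 bp or more and that contained the start of no annotated transcript of a protein-coding gene. There were 326 such peaks among 1951 Myc peaks, which is 16.7% (95% Wilson interval 15.1 to 18.4), and among 5229 peaks in the 3 lists together. Binding had been profiled by Targeted DamID (TaDa), with 3 samples for Dam fused to Myc, 3 for Dam fused to Psi, 3 for Dam fused to the RNA polymerase subunit Polr2F (RpII18) and 7 with Dam alone. All of these animals were female larvae in which the scalloped driver sd-GAL4 expressed a UAS transgene under temperature-sensitive GAL80. Eggs were laid over less than 4 h at 25°C, animals were held at 18°C for 7 days, and the transgene was induced at 29°C for 24 h before wing discs were collected in the third instar. Dam-only samples 3, 4 and 5 were the controls of the Myc-Dam samples and served no other fusion. Differences between the Myc list and the other lists therefore cannot be told apart from differences between their controls. Only cells that expressed the driver carried signal, and the samples were averaged before peaks were called, so that no peak has a spread over samples, replicates could not be compared and the read depth is unknown. Intervals below cover counting error over peaks only, and no test was made between classes of peaks, because peaks of a single list are not replicates.

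In TaDa, a bacterial adenine methylase fused to a protein marks GATC sites close to where that protein sits on chromatin, and the marked fragments are sequenced. Myc is a basic helix-loop-helix leucine zipper protein that binds DNA as a dimer with Max, most tightly at the E-box CACGTG, and in flies it is known for driving the expression of genes for ribosome assembly, translation and cell growth. Psi is a KH-domain protein that binds single-stranded nucleic acids and is known for roles in splicing and in transcription of Myc. Most known Myc sites lie at promoters, and the peaks described here hold no protein-coding start and overlap no Psi or RNA Pol peak. They are not all far from promoters, since 85 of the 326 (26.1%) had a protein-coding start within 500 bp of an edge, 28 of them within 100 bp. No start of an annotated gene of any kind lay in 281. That annotation includes transposable elements, and 28 peaks held the start of one.

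The sequences shown first are the stretches around the E-box closest to the peak centre in the highest-scoring peaks that held one, on the arms from which sequence is printed here and where the stretch itself held no transposable element, since the share of peaks with this motif is compared between classes next. They are given on the plus strand of BDGP6, with the E-box in capitals, and for Tom, a high-scoring peak with no E-box in its central 1 kb, the 100 bp at the peak centre are given with no capitals. The stretch at Stt3A, the catalytic subunit of the oligosaccharyltransferase, lies in an intron at chrX:21052784-21052883. That at Mfap1, a spliceosomal protein, lies outside protein-coding genes at chr3L:1940428-1940527. Those at CG8565 (chrX:15839125-15839224) and at Karl, a lipocalin (chrX:11790859-11790958), lie in coding exons. The stretch by ccb (chrX:21175430-21175529) and the stretch by CG15317 (chrX:9557890-9557989) lie outside protein-coding genes, that in Myc itself (chrX:3377114-3377213) in an intron, and that by Tom, a Bearded-family member of the Notch pathway, outside genes at chr3L:14967273-14967372.
Stt3A: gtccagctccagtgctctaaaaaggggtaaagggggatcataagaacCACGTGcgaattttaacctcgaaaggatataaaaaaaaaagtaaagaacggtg
Mfap1: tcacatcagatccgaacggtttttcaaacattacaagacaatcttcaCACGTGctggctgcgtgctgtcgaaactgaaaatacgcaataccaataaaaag
CG8565: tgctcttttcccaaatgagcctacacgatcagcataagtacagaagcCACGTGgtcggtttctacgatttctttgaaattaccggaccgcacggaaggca
Karl: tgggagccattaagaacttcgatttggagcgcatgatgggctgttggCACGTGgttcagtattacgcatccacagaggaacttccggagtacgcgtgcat
ccb: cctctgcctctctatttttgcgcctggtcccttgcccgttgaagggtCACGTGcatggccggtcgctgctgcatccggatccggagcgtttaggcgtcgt
Myc: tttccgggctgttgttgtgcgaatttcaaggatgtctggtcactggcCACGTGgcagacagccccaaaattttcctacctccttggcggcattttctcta
CG15317: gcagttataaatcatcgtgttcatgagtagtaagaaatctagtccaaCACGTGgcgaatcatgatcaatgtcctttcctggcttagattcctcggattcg
Tom: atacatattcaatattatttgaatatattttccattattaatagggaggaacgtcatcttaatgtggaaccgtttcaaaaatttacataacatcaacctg

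The canonical E-box CACGTG lay in the central 1 kb of 83 of the 326 peaks, or 25.5% (21.0 to 30.5). Of these, 75 held 1 copy, 6 held 2 and 2 held 3. The same motif was found in 13.5% (10.8 to 16.7) of the 518 Myc peaks that were away from starts but shared with Psi or RNA Pol, in 6.94% (5.21 to 9.19) of the 634 Psi peaks alone and away from starts, and in 8.79% (5.48 to 13.8) of the 182 such RNA Pol peaks. Of all 118291 non-overlapping 1 kb tiles of the 6 chromosome arms without a protein-coding start, 11.1% held it. The interval for the peaks of Myc alone therefore lay above the tile share and above the intervals of the other classes away from starts, and it overlapped that of the 554 Myc peaks alone over a start, at 30.9% (27.2 to 34.8). A match is a description of these letters and not a measured site. The median width of the 326 peaks was 878.5 bp, so the window reached beyond many of them and a match can lie outside the peak. The motif reads the same on both strands and was searched as such. The central 1 kb of a peak can hold a start that the peak itself does not, which the tiles cannot.

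**Figure D1:**
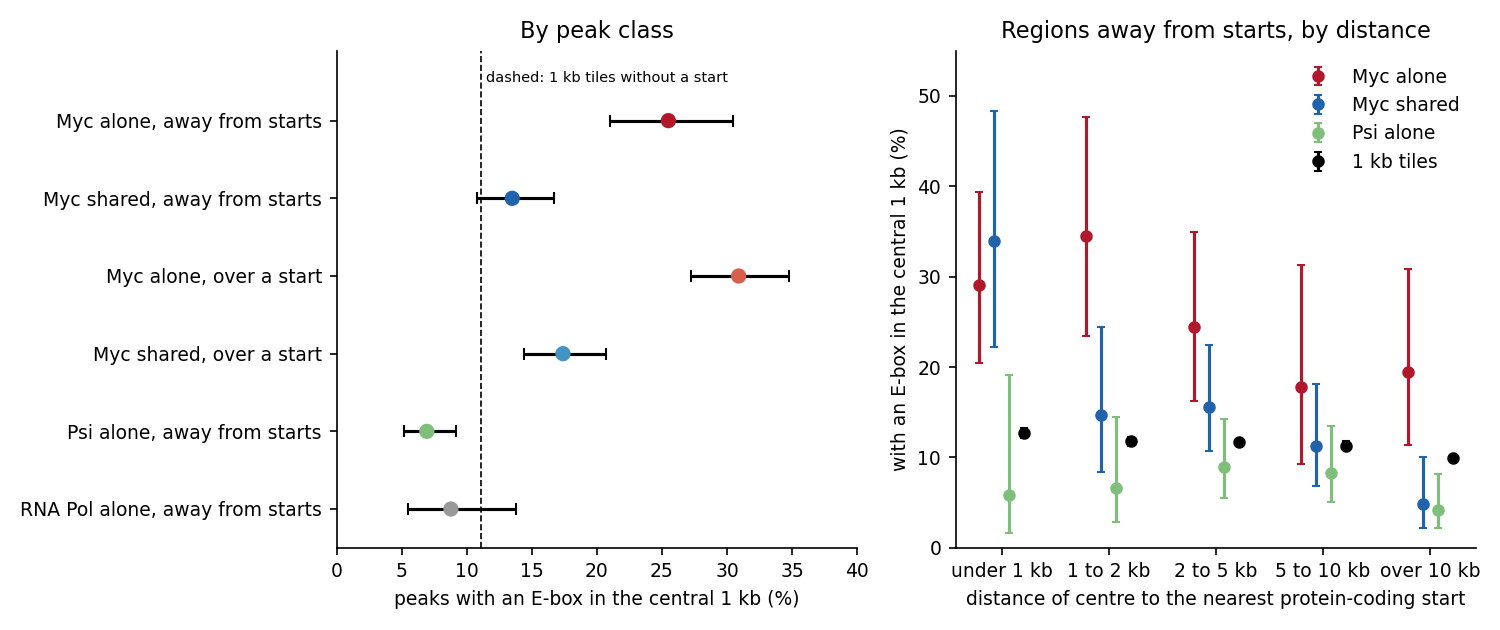
Share of regions with an E-box (CACGTG) in the central 1 kb, in percent, by peak class (left) and, for regions away from starts, by the distance of their centre to the nearest protein-coding start (right). Points are shares, bars are 95% Wilson intervals over peaks or tiles, and the dashed line marks the 11.1% of 1 kb tiles without a start. Myc peaks alone and away from starts stood at 25.5%, shared Myc peaks at 13.5% and Psi peaks alone at 6.94%.

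The motif was denser near the peak centres. In 250 bp bins, the 326 peaks held 0.368 E-boxes per kb per peak just right of the centre and 0.282 in the bin from 500 to 250 bp left of it, against 0.123 per kb over the 6 arms. The bin just left of the centre had 0.221. Beyond 1500 bp the density was 0.0982 to 0.11 per kb on the right and 0.0982 to 0.16 on the left. Around the centres of Psi peaks alone and away from starts, no bin within 1 kb of the centre exceeded 0.0946 per kb. The shared Myc peaks away from starts held 0.193 per kb just left and 0.17 just right of the centre. Their bins within 1 kb ranged from 0.0618 to 0.208 per kb, the highest at 750 to 1000 bp right. When only the central 500 bp were searched, 13.5% (10.2 to 17.6) of the peaks of Myc alone held the motif, against 8.69% (6.56 to 11.4) of the shared Myc peaks and 5.79% of tiles of 500 bp, and the intervals of the Myc classes then overlapped. Over whole peaks they also met, at 27.3% (22.7 to 32.4) for Myc alone and 19.3% (16.1 to 22.9) for the shared peaks, which are wider.

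**Figure D2:**
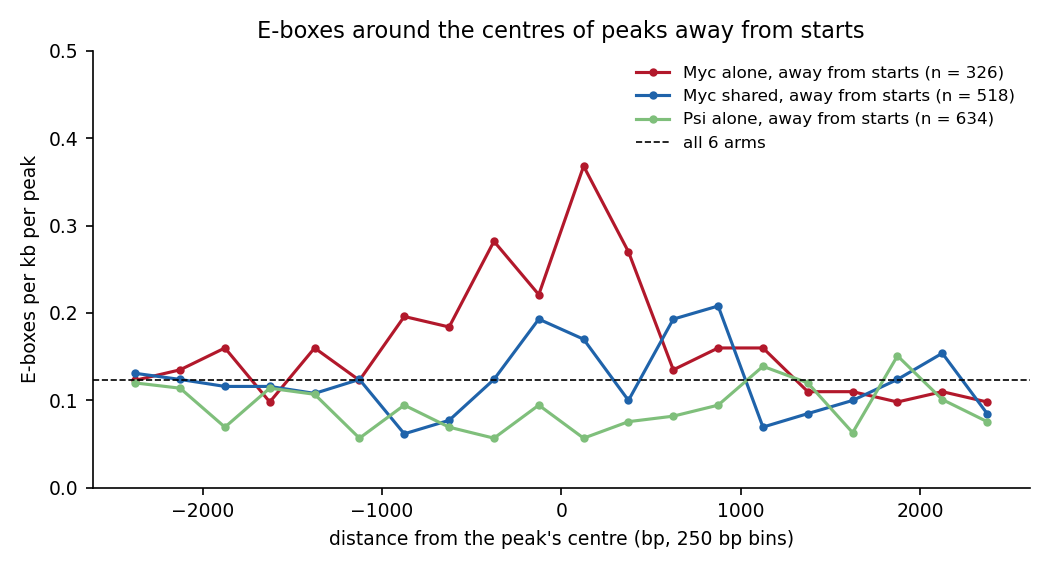
Number of E-boxes (CACGTG) per kb per peak in 250 bp bins, against the distance from the peak's centre in bp, for 3 classes of peaks away from starts. The dashed line is the density over all 6 arms, 0.123 per kb. The Myc peaks alone reach 0.368 per kb beside their centre, the shared Myc peaks 0.208 at 750 to 1000 bp from it, and the Psi peaks alone stay close to or below the line.

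The share with an E-box was also counted by the place of the peak. It was 29.1% (20.5 to 39.4) in the 86 peaks centred under 1 kb from a protein-coding start, 34.5% (23.4 to 47.7) in the 55 at 1 to 2 kb, 24.4% (16.2 to 34.9) in the 78 at 2 to 5 kb, 17.8% (9.29 to 31.3) in the 45 at 5 to 10 kb, and 19.4% (11.4 to 30.9) in the 62 farther out, and these intervals overlapped. The tiles went from 12.7% under 1 kb to 9.96% beyond 10 kb. Among shared Myc peaks away from starts, the share was 34.0% (22.2 to 48.3) under 1 kb, where it matched that of Myc alone within the intervals, and 4.8% (2.22 to 10.1) beyond 10 kb. By annotation, the motif lay in 34.7% (24.8 to 46.2) of the 72 peaks of Myc alone that were mostly coding exon, in 20.9% (14.4 to 29.2) of the 115 mostly in introns and in 25.4% (18.4 to 34.0) of the 118 mostly outside protein-coding genes. Each of these intervals lay above the share of the tiles of the same main annotation. That share was 13.3% for coding exons, 11.1% for introns and 10.6% outside genes. These tiles hold no start, whereas the central 1 kb of a peak near a start can hold one, so the regions compared are not fully alike. The interval of the 21 peaks mostly in untranslated exons, 19.0% with a lower bound of 7.67%, held the tile share of 7.89%. The interval at 5 to 10 kb likewise held its tile share of 11.3%. Within introns the shared Myc peaks stood at 12.6% (9.27 to 17.0) and the intervals overlapped. They also overlapped at 1 to 2 kb, where the shared peaks were at 14.7% (8.39 to 24.4). The same held at 2 to 5 kb, at 15.6% (10.7 to 22.4), and at 5 to 10 kb, at 11.3% (6.85 to 18.1). In coding and untranslated exons, with only 7 and 14 shared peaks, the intervals overlapped too. Outside genes the shared peaks were at 13.2% (9.3 to 18.4), so that the intervals met. Of these distances and annotations, only beyond 10 kb did the intervals of the Myc classes lie apart. Peak scores hardly separated by motif, with a median of 2.60 in the peaks with an E-box and 2.54 in those without.

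The other motifs differed from class to class in their own ways. The E-box variant CACGCG, searched on both strands, was found in 25.8% (21.3 to 30.8) of the peaks of Myc alone, in 24.7% (21.2 to 28.6) of the shared Myc peaks away from starts and in 16.2% of tiles. CACGAG was found in 25.5% (21.0 to 30.5) of the former, 19.1% (16 to 22.7) of the shared ones and 19.8% of tiles, while the variant CATGCG stood at 25.8% against 28.8% and 23.2%. CATGTG was found in 46.6% (41.3 to 52.0) of the peaks, in 259 of the 518 shared ones and in 37.5% of tiles. The DNA replication-related element TATCGATA, a core promoter motif of growth genes, was found in 3.68% (2.12 to 6.32) of the peaks, against 17.1% (14.2 to 20.5) of the Myc peaks alone over a start and 2.04% of tiles without a start. The GAGA motif GAGAGAG, at 12.6% (9.41 to 16.6), was below the 18.1% (15.1 to 21.7) of shared Myc peaks away from starts, with intervals that overlapped. The motif CATTCC, which TEAD factors such as Scalloped bind, stood at 40.2% (35.0 to 45.6) and at 39.5% in tiles. TGANTCA, the AP-1 motif, was found in 19.3% (15.4 to 24.0) of the peaks and 18.1% of tiles. CAGGTAG, bound by Zelda, was found in 3.99% (2.35 to 6.70) of the peaks and 5.23% of tiles. Shared Myc peaks away from starts stood at 8.88% (6.72 to 11.6) and RNA Pol peaks alone at 10.4% (6.79 to 15.7). The interval for Myc alone lay just below those of both of these classes and held the tile share. It overlapped that of Psi peaks alone and away from starts, at 6.94% (5.21 to 9.19). Any E-box of the form CANNTG occurred in 99.7% of the peaks and 98.6% of tiles, and so carries no contrast at this width.

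The next difference was in what the peaks covered. Of the bases under the 326 peaks, 15.4% were coding exon, 5.38% untranslated exon, 39.1% intron and 40.1% outside protein-coding genes. The shared Myc peaks away from starts had the same 40.1% outside genes but 54.9% intron and only 2.19% coding exon, and coding exon made up 3.78% of the bases of Psi peaks alone and 1.67% of those of RNA Pol peaks alone away from starts. Counted by peak, 72 of the 326 (22.1%, 17.9 to 26.9) were mostly coding exon, against 7 of 518 shared Myc peaks (1.35%, 0.656 to 2.76), 16 of 634 Psi peaks (2.52%, 1.56 to 4.06) and 1 of 182 RNA Pol peaks (0.549%, 0.0971 to 3.05). Over the whole of the 6 arms, coding exon takes up 17.1% of bases, so that the share in the peaks of Myc alone was near that of the genome and the other classes away from starts were far below it. Myc peaks alone over a start were 25.1% coding exon. GC content moved with this, with a median of 47.7% in the central 1 kb of the mostly coding peaks, 43.4% in the intronic and 41.8% in those outside genes, against 41.7% in tiles without a start, and its part in the result was not tested.

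**Figure D3:**
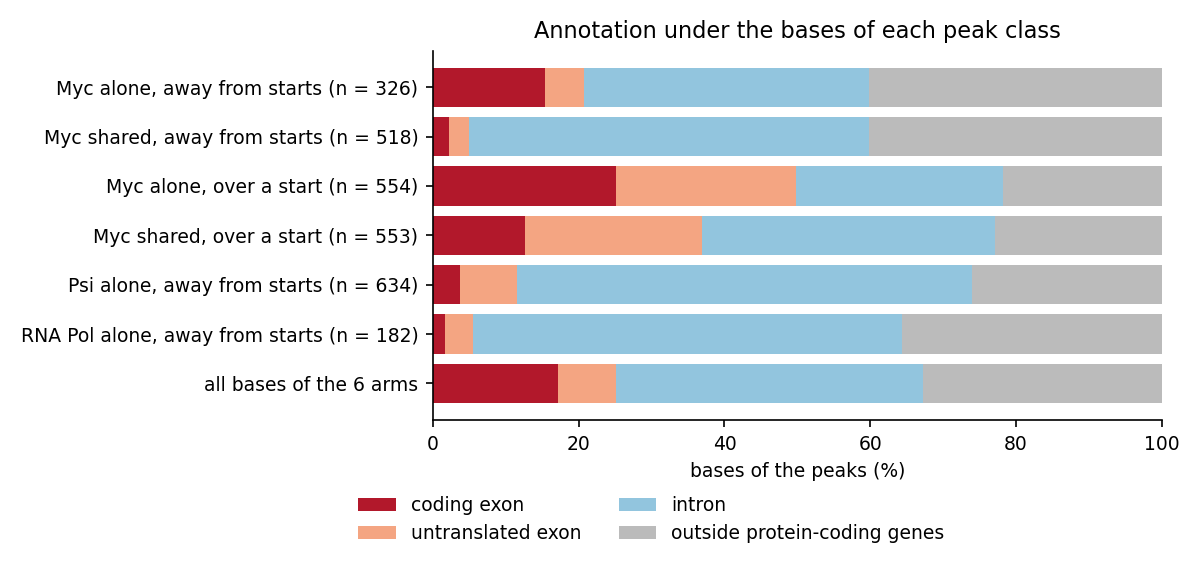
Percent of the bases of each peak class that lie in coding exons, untranslated exons and introns of protein-coding genes, or outside them, with the same for all bases of the 6 chromosome arms. Coding exon takes 15.4% of the bases in Myc peaks alone and away from starts and 2.19% in the shared ones.

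The exonic peaks were narrow and close to starts, and a wide peak near a start would have held it and been left out by the rule. In the 21 mostly in untranslated exons the median width was 585 bp and the median distance from centre to the nearest start 590 bp, with 13 (61.9%) centred within 1 kb of a start. For the mostly coding peaks the median width was 631.5 bp, against 970 bp for intronic peaks and 1014 bp for peaks outside genes, and the median distance was 789 bp, against 3272 and 4818 bp. Of the 72, 41 (56.9%) had their centre within 1 kb of a start. Over all 326 peaks, 86 (26.4%) did, and 66 of these 86 (76.7%) were centred downstream of that start. Named peaks centred within 1 kb downstream of a start included those in Rrp45, an exosome subunit (score 4.41, 75.3% coding exon, centre 260 bp from the start), in nclb, a nucleolar protein (3.57, 87.6% coding, 352 bp), in Stt3A (5.12, 42.5% coding, 622 bp) and in osk, the organiser of germ plasm (1.60, 70.8% coding, 457 bp). A peak in Polr1E, a subunit of RNA polymerase I that was picked after its values were seen, was of the same kind (3.83, 90.0% coding, 432 bp). The edges of the peaks in nclb, osk and by CG13050 lay 2 bp from an annotated start, so that the nearest GATC site decided whether they counted as over it.

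Over all 326 peaks, the median distance from centre to the nearest start was 2611 bp, with quartiles at 902 and 6926 bp, and 62 peaks (19.0%) were over 10 kb away. For the shared Myc peaks away from starts the median was 4784 bp and for the Psi peaks alone 6001 bp. Wholly inside a protein-coding gene lay 201 peaks (61.7%, 56.3 to 66.8), 17 crossed the end of a gene and 108 (33.1%) lay wholly outside. Inside genes, the peaks were spread along the transcription unit, with 23.4%, 22.9%, 22.9%, 20.4% and 10.4% of the 201 in successive stretches of 20% of its length from the start to the end. Of these 201, 154 (76.6%, 70.3 to 81.9) were in a gene with no start in a Myc, Psi or RNA Pol peak. In a gene with a start in an RNA Pol peak lay 26 (12.9%). These are shares of peaks, and a gene with several peaks counts more than once. Of all protein-coding genes, 85.1% had no start in any peak. Counted by gene, 22 of the 206 genes with a peak inside (10.7%) had a start in an RNA Pol peak, against 7.92% of all genes. The genes with a peak inside were long, with a median of 10690 bp against 2166 bp over all protein-coding genes, and 3.16% of genes of 5 to 20 kb had one against 0.338% of genes under 2 kb.

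The rule used the lists themselves, so the peak scores and widths are given as description. The score, set by the authors' peak caller, had a median of 2.55 (quartiles 2.01 and 3.25, range 0.42 to 5.45) in these peaks and of 2.85 in the shared Myc peaks away from starts, 2.99 in Myc peaks alone over a start and 3.21 in shared peaks over a start. The median width was 878.5 bp, against 1318, 1401 and 1836 bp, with a median of 4 GATC fragments per peak. When all 1951 Myc peaks were split by score into 5 groups of 390 or 391, the peaks described here made up 26.6% of the lowest group, 18.2%, 15.6% and 15.6% of the following ones and 7.44% of the highest. An FDR of 0.1% or less was reached by 149 of the 326 (45.7%), and by 64.3% of the shared Myc peaks away from starts. At the threshold of overlap, the closest peaks that still counted as alone were those by CASK, a membrane scaffold, 32 bp from a Psi peak, in dpn, a neuroblast bHLH factor, 66 bp from a Psi and an RNA Pol peak, and by dap, a CDK inhibitor, 71 bp from an RNA Pol peak. Just outside it, 10 Myc peaks away from starts were left out by a single shared base, among them those by shg and Cul2, which were picked after their values were seen. Most peaks were not near the threshold, as 24 (7.36%) had a Psi or RNA Pol peak within 1 kb and 181 (55.5%) had none within 10 kb.

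**Figure D4:**
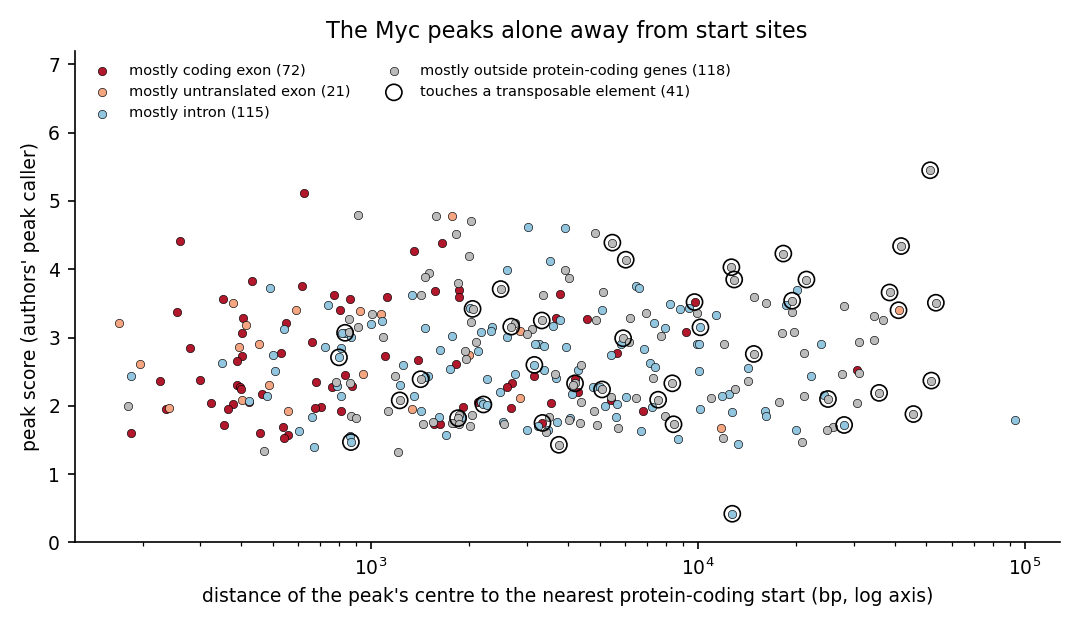
Peak score against the distance of the peak's centre to the nearest protein-coding start (bp, log axis) for each of the 326 peaks, coloured by the annotation under most of its bases, with open circles around the 41 that touch an annotated transposable element. The mostly coding peaks gather within 1 kb of a start, and circled peaks lie from 798 to 53438 bp from a start, with the highest score (5.45) and the lowest (0.42) among them.

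The highest score belonged to a peak between genes on 2R (chr2R:6450184-6451178, score 5.45), 51325 bp from the nearest start, that of jing, a zinc finger transcription factor, and it ranked 8 among all Myc peaks. With the peaks scoring 4.34 and 3.66 it formed a cluster of 3 over chr2R:6450184-6463977. The peaks in Stt3A (chrX:21052736-21053895, 5.12) and by Mfap1 (chr3L:1939755-1940559, 4.80) followed. Peaks outside protein-coding genes lay by CG10597 (4.78), Tom (4.71), foxo, the forkhead factor held in check by insulin signalling (4.53, 4834 bp from its start), Hr38, a nuclear receptor (4.52), and CG12547 (4.39). Intronic peaks lay in smash, a LIM-domain protein of adherens junctions (4.62), and in the autophagy gene Atg16 (4.61), both wholly inside the intron. A peak over CG32645 and CG4318 (4.78) was 66.6% untranslated exon, while those in CG8565 (4.38) and Karl (4.27) were 82.1% and 59.5% coding exon. The widest peak, in an intron of Raf, spanned 9061 bp and had the lowest score of the whole Myc list, 0.42. It was followed in width by a peak by Dfd, a Hox gene (5433 bp, score 1.69), and a peak in crp, a bHLH leucine zipper gene (4492 bp, 2.83). The next lowest scores were those by Thor, the 4E-BP translation inhibitor (1.32), and rho-6, a rhomboid family member (1.34).

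Few peaks lay close together. Within 10 kb of each other, 35 peaks (10.7%) formed 16 clusters of at most 3. With Myc peaks of every class counted, 140 (42.9%) had another Myc peak within 10 kb. The median gap from a peak to the nearest other Myc peak was 14373 bp. The genes with most peaks inside were twi, a mesodermal bHLH factor whose annotated span of 62952 bp held 4 (1.85 to 3.69), and CG42741, within that span, which held 3 of the same peaks. After them, bves, smash, Raf and CG1677 held 2 each. Per arm, the peaks made up 15.1% to 18.6% of Myc peaks on X, 2L, 2R, 3L and 3R, with 2.03 to 2.59 per Mb. On the small and repeat-rich chromosome 4 they were 9 of 26 Myc peaks (34.6%, 19.4 to 53.8), or 6.68 per Mb, with scores of 1.43 to 2.78, and 7 of these 9 touched a transposable element.

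Annotated transposable elements were touched by 41 of the 326 peaks (12.6%), against 2.90% of shared Myc peaks away from starts, 2.84% of Psi peaks alone, 8.24% of RNA Pol peaks alone and 5.78% of Myc peaks alone over a start. They took up 9.09% of the bases under the peaks of Myc alone, of which the single peak in Raf, with 8527 bp of a Tirant element, holds a large part, and 5.93% of the bases of the arms. In 22 of the 326 peaks most of the bases were of this kind. This is close to the genome share, since 7558 of the 118291 1 kb tiles without a protein-coding start were too. No such tile share was computed for touching an element. The 22 included the jing peaks at 5.45 and 3.66 and 3 peaks by Pld, a phospholipase D, that scored 2.76 to 3.85 and were 100% transposable element. The most frequent families were INE-1 under 8 peaks and 1360 under 7. How reads that map to several copies were treated is not given in the sources used here, and its part in these peaks was not tested. The 41 peaks lay farther from starts, with a median of 8349 bp against 2126 bp for the 285 that touched no element, and an E-box was found in 12.2% of the former and 27.4% of the latter. Without the 22 peaks, an alternative added after seeing the data, the E-box share was 26.0% and the share of coding exon bases 16.9%. Of the other annotated features, 29 peaks overlapped a long non-coding RNA and 11 held the start of such an RNA, while none overlapped an rRNA or snRNA gene.

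The Myc gene itself carried one of the higher-scoring peaks (chrX:3375147-3378223, score 4.12, rank 200 in the Myc list). The peak began 1.988 kb downstream of the start of Myc, 122 bp beyond the end of an RNA Pol peak over that start (score 1.32), and reached to 5.064 kb. Coding exon made up 35.3% of it and the long intron the remaining 64.7%, which held an E-box 4.002 kb from the start, in the stretch printed above. A second Myc peak, from 7.639 to 12.28 kb (score 3.21), overlapped a Psi peak (2.09) and so was not among the 326. DNA of the Myc-Dam transgene, which codes for Myc, and of the gene's coding exons cannot be told apart in these lists. The other genes that the study followed for binding had no such peak within 1 kb. Myc peaks of other kinds lay within 1 kb of stg (1), tok (2), fz2 (4), chic (2), Exn (1), emp (1) and Psi (1), and none within 1 kb of dally, dlp or Polr2F.

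**Figure D5:**
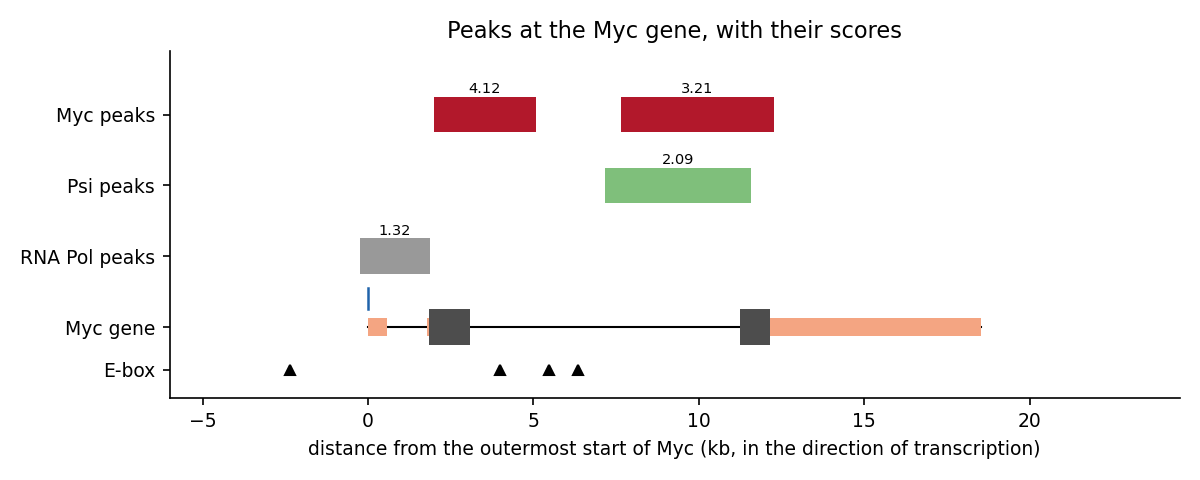
Peaks of the 3 lists at the Myc gene, placed by distance in kb from its start in the direction of transcription, with the authors' scores above them. Dark boxes are coding exon, light boxes untranslated exon, the blue tick is the start and triangles are E-boxes. The Myc peak from 1.988 to 5.064 kb lies between the RNA Pol peak over the start and the Psi peak.

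Of 13945 protein-coding genes, 341 (2.45%) had 1 of the 326 peaks within 1 kb and 227 (1.63%) were overlapped by one, while 2675 (19.2%) had any Myc peak within 1 kb. The gene lists below were chosen with earlier results of these data known, and long genes have more peaks, so that the counts are descriptions. Among genes of growth, 56 of 92 cytoplasmic ribosomal protein genes (60.9%) had a Myc peak of any kind. Peaks of Myc alone away from starts lay by 2 (2.17%), near the 2.45% of all genes. They were in RpL23A (2.78) and RpS7 (1.95), each within its coding exons and introns. The ribosomal protein genes are short, with a median length of 1315 bp, and 1.29% of all genes under 2 kb had such a peak. Of 53 translation factors, 20 had any Myc peak and 1 (1.89%) such a peak, eIF2Bbeta (1.72). Of 20 nucleolar and ribosome biogenesis genes, 12 had any Myc peak and 3 (15%) such a peak: nclb (3.57), the nucleolar protein vito (2.73, wholly coding exon) and the nucleostemin GTPase Ns3 (2.24, 84.5% coding exon, with an E-box). Of 19 insulin and TOR genes there was 1, ImpL2, a secreted insulin-binding protein (3.09), which the peak did not overlap.

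Cell cycle genes had such a peak in 4 of 27 cases (14.8%), and 15 had any Myc peak. These were Cdk4, the partner of Cyclin D (3.99, 79.6% intron), CycA, the mitotic and S-phase cyclin (3.24), the inhibitory kinase Myt1 (2.73) and CycB3 (2.38). The peak by Myt1 is the one given above for vito. It does not overlap Myt1 and counts in both lists. In the Max network and bHLH list, 7 of 48 genes (14.6%) had one, namely Myc (4.12), twi (3.69), dpn (3.02), crp (2.83), the clock repressor cwo (2.14), E(spl)m5-HLH (1.86) and the proneural gene l(1)sc (1.83). The peaks by E(spl)m5-HLH and l(1)sc lay within 1 kb of these genes but did not overlap them. The shares of both lists were above the 2.45% of all genes, and they rest on few genes.

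Of 27 Wg pathway genes 3 (11.1%) had such a peak. The ligand Wnt2 had 2, outside the gene (3.94) and in an intron (3.09), the receptor fz had 1 in an intron (3.47), and the ligand Wnt6 had 1 in an untranslated exon (3.41). In the other signalling pathways the counts were 1 of 23 for Dpp and BMP (the activin-like ligand daw, 2.42), 1 of 18 for EGFR (the kinase Raf, 3.25 and 0.42), 1 of 17 for the ecdysone response (the nuclear receptor ftz-f1, 3.43), 0 of 13 for Hh, 0 of 16 for Notch, 0 of 20 for Hippo and Fat-Dachsous and 0 of 9 for JAK-STAT. Any Myc peak lay within 1 kb of 3 Hh, 7 Notch, 7 Hippo and 3 JAK-STAT genes. Over all genes the shares were 2.45% for such a peak and 19.2% for any Myc peak. Counts of 0 in lists of this size, here and below, are thus near the share of all genes. The Notch list holds core components and Brd but not Tom or the E(spl) genes, so the peaks by Tom (4.71) and E(spl)m5-HLH (1.86) are outside its count. Wing transcription factors had 3 of 44 (6.82%), Sox15 (3.17), inv (2.16) and eyg (2.11). Of these 44 genes 22 had an RNA Pol peak and 29 a Psi peak within 1 kb, while over all protein-coding genes 13.6% had an RNA Pol peak and 7.92% a Psi peak within 1 kb. Of 230 chemosensory genes 8 had an RNA Pol peak, but these genes are short, with a median length of 1498 bp against 15530 bp in the wing list. None of 8 Hox genes and none of 26 insulator, Polycomb and trithorax genes had a peak of Myc alone away from starts within 1 kb. For adhesion and matrix genes the count was 1 of 43 (Cad88C, 3.68), for axon guidance 1 of 36 (Dscam4, 1.97) and for ion channels and receptors of neurons 2 of 44 (nAChRalpha4, 3.15, and KCNQ, 1.69). Among lists of other cell types, chemosensory genes had 2 of 230 (0.87%; Obp56i, 2.94, and Or88a, 2.27), muscle precursor markers 2 of 15 (twi, and the titin-like sls, 2.53), and tracheal and haemocyte markers 0 of 10 and 0 of 14. The peaks by eyg, Cad88C, Dscam4, Obp56i and Or88a did not overlap these genes. Those by Cad88C, Dscam4 and Or88a lay inside another protein-coding gene.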

How the data were processed

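Peak lists from TaDa with Dam fused to Myc, Psi and Polr2F were used. The authors aligned reads to BDGP6 with Bowtie2, averaged the log2 ratio of fusion over Dam alone across 3 replicates and called peaks at an FDR of 1%. The deposited score of each peak comes from their peak caller, whose formula no source used here states. The deposited FDR is a value per peak. All 1951 Myc, 1710 Psi and 1568 RNA Pol peaks began and ended at a GATC site. Depth is unknown. Samples were grouped by title, since a description label conflicted with titles and design.

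Overlap, starts and annotation came from Ensembl release 115 (BDGP6 version 54; 13945 protein-coding genes, 30748 transcripts), and sequence from RefSeq's genome of the same assembly. A base in several categories counted as coding, then untranslated exon, then intron. Motifs were searched in the central 1000 bp. Python 3.11.15, numpy 2.4.6, pandas 2.3.3, scipy 1.17.1 and matplotlib 3.10.9 were used, and the code was tested on simulated data. Members and the 24 gene lists were chosen with earlier results of these data known. Genes named are those at the 15 highest and 3 lowest scores, the 3 widest peaks, the 3 closest to another list's peak or to a start, the 6 genes with most peaks inside, up to 4 per list, and those of the study, with all 7 bHLH genes given. Peaks by ccb and CG15317 are named for their printed sequence, and Pld was chosen after its values were seen. Alternatives changed the overlap, the FDR, the start definition, the gene distance and the motif window. Signal tracks were not used here.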

Additional observations from a re-analysis of the deposited data

How the results depend on the processing

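Each value below has no test, and the cause of each shift was not tested unless the rule itself sets it. The E-box share of the 326 peaks ranged from 23.7% to 25.5% under the 7 other definitions of overlap, FDR and start, was 27.3% over whole peaks, and was 13.5% in the central 500 bp, where fewer bases are searched. The shared Myc peaks away from starts ranged from 11.2% to 15% under the same 7 definitions, and were at 19.3% over whole peaks and 8.69% in 500 bp. With Myc peaks at an FDR of 0.1%, fewer peaks qualify by construction: 149 remained, with 55.7% inside a gene and 142 genes within 1 kb. With all 3 lists at 0.1% there were 184 peaks, of which 149 were among the 326, with 54.9% inside a gene and 169 genes. With no start within 500 bp of the peak, 241 remained, and coding exon bases fell to 11.0%, peaks inside a gene to 54.4% and genes to 187, with a median distance of 4152 bp. Starts of any annotated gene, transposable elements included, left 281 peaks, with 34.6% of bases outside protein-coding genes and 66.9% of peaks inside one. With only the outermost start of each gene there were 399 peaks, with 30.8% of bases outside genes, 44.5% intron, 9.19% untranslated exon, 68.2% of peaks inside a gene and a median distance of 1814 bp. An overlap of at least 50% gave 381 peaks and 46.1% of bases outside genes. Genes overlapped by a peak numbered 227, and genes within 2 kb 444. Of 48 gene list counts at other distances, 10 moved by more than 1.5 times, by at most 5 genes, the ribosomal proteins from 2 to 7 at 2 kb. No paired analysis was possible because the peak lists, the files analysed here, were each called on the average of the replicates. Without per-sample values, no error between animals can be given.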
